A study of Mus musculus with 4 samples.

Results

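Among tdTomato+ cells sorted from mouse hindlimb muscle, 1017 of 29618 cells carried abundant RNA of mature muscle and almost no RNA of the mitochondrial genome. They were selected by 2 shares of each cell's unique molecular identifiers (UMIs, which mark single captured RNA molecules). *Ckm*, *Acta1*, *Mylpf*, *Tnnc2* and *Tnnt3* together had to make up at least 1% of the UMIs, and the 13 genes encoded in mitochondrial DNA had to make up under 1%. Cells with at least 1000 UMIs and 400 genes were considered. The selected cells are called mt-low muscle cells here, where "cell" means a barcode that the authors' pipeline called as a cell, and whether each was a whole cell cannot be told apart from a fragment in these counts.

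The study asked what loss of the α-catenins, cytoplasmic partners of cadherins, does to muscle stem cells (MuSCs). Control mice were *Pax7*CreERT2/+;*Rosa26*-tdTomato, and α-cdKO mice carried the same 2 alleles and were in addition homozygous for the floxed alleles *Ctnna1* fl and *Ctnna3* fl, all on C57BL/6J and 3 to 4 months old. All had received tamoxifen, and tissue was taken 14 days later. Each of the 4 samples (2 per genotype) pooled 2 littermates, with 30000 sorted cells loaded per sample. Cre was driven by *Pax7*, a gene of satellite cells and not of fibers. Both genotypes carried Cre and the reporter, so the floxed alleles were the only stated difference between the genotypes. p-values between genotypes measure the spread between these pools. Those between groups of cells from the same pools measure how the difference within a pool varied from pool to pool.

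As background, a skeletal muscle fiber is a large syncytium with many nuclei, filled with sarcomeres made of actin, myosin, troponin and tropomyosin. Fibers are typed by the myosin heavy chain they use, from slow type I (*Myh7*) through IIA (*Myh2*) and IIX (*Myh1*) to the fastest, IIB (*Myh4*). Fast fibers rely more on glycolysis and slow fibers more on mitochondria. MuSCs lie beside the fibers and express *Pax7* and *Myf5* but little sarcomere RNA.

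Control replicate 2 gave 659 of the 1017 mt-low muscle cells, or 64.8%, and stands apart in this respect. Control replicate 1 gave 106, and α-cdKO replicates 1 and 2 gave 198 and 54. As shares of the cells considered these were 1.89% (exact 95% binomial interval 1.55 to 2.28) of 5619, 11.8% (10.996 to 12.7) of 5569, 1.96% (1.69 to 2.24) of 10126 and 0.650% (0.489 to 0.848) of 8304, with intervals that cover counting error only. Control mice averaged 6.86% ± 7.03 (SD over 2 samples) and α-cdKO mice 1.30% ± 0.923 (SD over 2 samples), which is −2.40 on the log2 scale. Under the rule as given, the ranges of the genotypes overlapped. An exact two-sided permutation test over samples gave p = 0.6667, where 2 against 2 can give no less than 0.33, and without control replicate 2 the log2 ratio was −0.53. Among cells of at least 2000 UMIs the ranges did not overlap but nearly touched. They were 1.371% (75 of 5469 cells) and 9.06% in control against 1.363% (132 of 9682 cells) and 0.466% in α-cdKO. Among cells of 1000 to 5000 UMIs the ranges did not overlap either, with 7.48% and 38.4% in control against 5.11% and 2.97% in α-cdKO. The 5 selecting genes also made up more of the UMIs of the remaining cells in control replicate 2, namely 0.0475% there, 0.0182% in control replicate 1, 0.0358% in α-cdKO replicate 1 and 0.0231% in α-cdKO replicate 2. Its part in the share of mt-low muscle cells was not tested. Without control replicate 2, 358 of 24049 cells met the rule (1.49%).

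The thresholds fell in sparse ranges. Of the cells under 1% mitochondrial RNA, 74 had under 0.1% muscle RNA, 17 had 0.1 to 0.5%, 1 had 0.5 to 1%, none had 1 to 2%, and 4 had 2 to 5%. Most then lay far above the limit, with 148 at 10 to 15%, 551 at 15 to 20% and 272 at 20 to 30%. The mitochondrial limit was less clean, since 23 of the cells with muscle RNA had 0.75 to 1% and 22 lay in the next range of that width. Even so, 738 of the 1017 cells had under 0.1%, and 268 (26.4%) had no mitochondrial UMI at all.

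**Figure D1:**
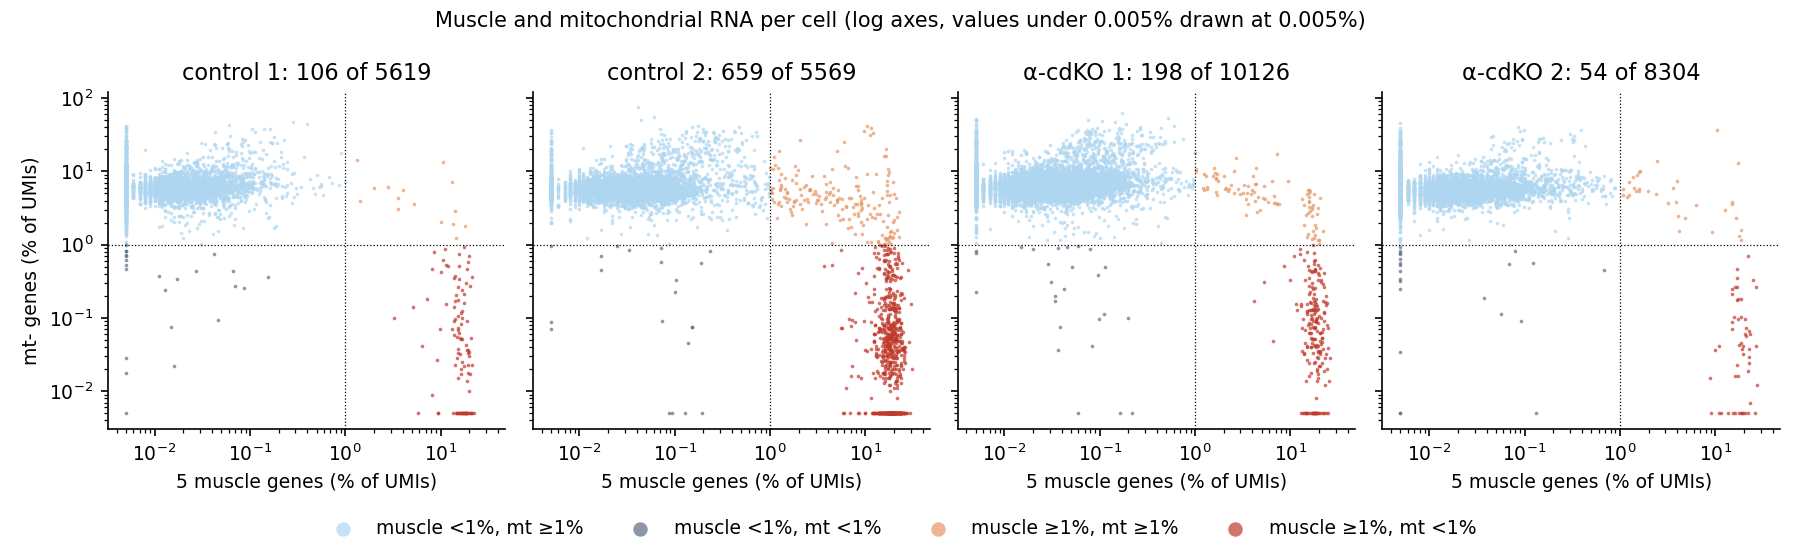
Each point is a cell, with the share of its UMIs from the 5 muscle genes on the x axis and from the 13 mitochondrial genes on the y axis, both on log scales, for each sample. Red points are the mt-low muscle cells, numbered in each title, and they form a column near 18% muscle RNA that runs down to cells with no mitochondrial UMI.

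The mt-low muscle cells were shallow. Their median was 3291 UMIs in control replicate 1, 2859 in control replicate 2, 2998 in α-cdKO replicate 1 and 3120 in α-cdKO replicate 2, against 7696, 8462, 6420 and 7651 in the cells with under 1% muscle RNA and at least 1% mitochondrial RNA, here the other cells. They held 876 genes at the median over all samples. Together they gave 434321 and 2601312 UMIs in control and 787922 and 242953 in α-cdKO, so α-cdKO replicate 2 has the least precise values. Of the cell barcodes used, 105 were shared between pairs of samples, summed over pairs. They covered 7 mt-low muscle cells, where 1 barcode was selected in both controls and so entered this count from each of them.

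The selecting genes, given as a description only, were even across samples. Levels are counts per 1e6 (CPM) of the UMIs summed over the cells of a sample, and since a UMI counts a transcript's 3′ end, genes can be compared without a length correction. *Acta1*, the skeletal muscle actin, stood at 49691 and 50548 CPM in control replicates 1 and 2 and at 57277 and 62761 in α-cdKO replicates 1 and 2. *Mylpf*, a fast regulatory myosin light chain, stood at 30634, 37685, 37133 and 40687 CPM in the same order, which is kept below. The troponins *Tnnc2* and *Tnnt3* averaged 34723 ± 1874 and 30005 ± 1051 CPM (SD, n = 4 samples), and the creatine kinase *Ckm* averaged 21510 ± 2701. These genes lie at chromosome 8 from 123891769 to 123894751 (*Acta1*, ENSMUSG00000031972), chromosome 7 from 127208890 to 127214298 (*Mylpf*, ENSMUSG00000030672), chromosome 2 from 164777161 to 164779967 (*Tnnc2*, ENSMUSG00000017300), chromosome 7 from 142498836 to 142516009 (*Tnnt3*, ENSMUSG00000061723) and chromosome 7 from 19404776 to 19422841 (*Ckm*, ENSMUSG00000030399) of GRCm38, in the GENCODE vM21 annotation.

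*Pvalb*, the calcium buffer of fast fibers (ENSMUSG00000005716, chromosome 15 from 78191114 to 78206400), was the marker that the rule did not use. It stood at 7184, 10812, 7276 and 7779 CPM, against 6.03, 24.9, 11.4 and 5.48 CPM in the other cells. With every cell thinned to 1000 UMIs, 78.3%, 93.9%, 86.9% and 87.0% of the mt-low muscle cells had a *Pvalb* UMI, against 0.566%, 3.42%, 1.47% and 0.537% of the other cells. *Pvalb* thus followed the mature-muscle label in all 4 samples, with no overlap. It was among the markers named with this group beforehand, and the other cells were chosen to be low in muscle RNA. The difference is therefore a description and no separate test of the label.

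Of the 10 most abundant genes by mean CPM, all but *Gapdh* and *Aldoa* encode sarcomere proteins or creatine kinase. Beside the selecting genes these were *Myl1* (28599 ± 7220 CPM), a fast essential light chain, *Tnni2* (25196 ± 1362), a fast troponin, and *Tpm1* (20950 ± 2061), a tropomyosin. The glycolytic enzymes *Aldoa* and *Gapdh* stood at 15635 ± 2286 and 12301 ± 2690 CPM, and *Eno3* and *Pgam2* at 4817 ± 672 and 3993 ± 385. The sarcomere scaffold was led by *Tcap* (4721 ± 655 CPM), which caps titin at the Z-disc, *Cryab* (3801 ± 1450), a small heat shock protein, *Myoz1* (2510 ± 145) and the intermediate filament *Des* (2134 ± 155). Calcium handling genes were lower, with *Trdn*, which couples calsequestrin to the ryanodine receptor, at 611 ± 180 CPM, *Jsrp1* at 379 ± 35.0, the SERCA inhibitors *Mrln* at 362 ± 52.8 and *Sln* at 295 ± 287, and *Ryr1* itself at 129 ± 29.6. *Sln* was the uneven one, at 624, 86.9, 24.1 and 445 CPM.

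Markers of other cell types were mostly near 0, apart from 2 single cells and 2 genes of tendon. The 7 endothelial genes summed to 0 to 6.15 CPM per sample (highest *Fabp4*, *Kdr* and *Emcn* at 0), the 7 fibro-adipogenic genes to 4.12 to 11.4 (highest *Col3a1*, with *Pdgfra*, *Dcn*, *Lum* and *Mfap5* at 0), and the 5 smooth muscle and pericyte genes to 2.30 to 20.6 (highest *Acta2*, with *Myh11* and *Kcnj8* at 0). The 5 glial genes held 1 UMI in all, of *Mbp*, and the 4 cardiac genes 1, of *Myh6*. The 5 tendon genes summed to 39.3 to 74.2 CPM, led by *Thbs4* (38.1 ± 17.0 against 3.95 in the other cells) and *Scx* (21.1 ± 3.86 against 5.08), both spread over many cells, with *Tnmd*, *Fmod* and *Kera* at 0. The 9 genes of the neuromuscular synapse summed to 12.3 to 25.3 CPM (highest *Ufsp1*). The 8 immune genes were at 4.61, 61.9, 0 and 0 CPM (highest *S100a9*, with *Cd74*, *Cd68* and *C1qa* at 0), and in control replicate 2 a single cell held 73 of the 78 *S100a8* UMIs of all samples. The 5 erythroid genes reached 2550 CPM in α-cdKO replicate 1 and at most 14.2 in the others, and a single cell there held 1978 of the 2015 UMIs of the hemoglobin genes *Hba-a1*, *Hba-a2* and *Hbb-bs*.

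The adult myosins showed a IIB-dominated population. *Myh4* (ENSMUSG00000057003, chromosome 11 from 67238029 to 67260446) stood at 3541, 5505, 3939 and 1943 CPM. *Myh1* (67200052 to 67224575 on the same chromosome) stood at 790, 658, 1477 and 490 CPM, and *Myh2* (67171027 to 67197517) at 182, 40.7, 112 and 32.9. *Myh7* (chromosome 14 from 54970684 to 54994626) had 131, 40.7, 16.5 and 0 CPM. The order *Myh4*, *Myh1*, *Myh2* held in every sample, while *Myh2* and *Myh7* were level in control replicate 2.

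*Myh4* made up 76.3% (exact 95% interval 74.3 to 78.1) of the 2017 UMIs of these 4 genes in control replicate 1 and 88.2% (87.7 to 88.7) of 16242 in control replicate 2. The values for α-cdKO were 71.0% (69.7 to 72.4) of 4369 UMIs and 78.8% (75.3 to 82.0) of 599. Averages were 82.2% ± 8.42 (SD over 2 samples) for control and 74.9% ± 5.48 for α-cdKO, with overlapping ranges (p = 0.6667, exact two-sided permutation test over samples), and the difference of −7.28 percentage points was −1.33 without control replicate 2. Among cells of 1000 to 5000 UMIs, an alternative added after seeing the data, the shares were 86.0%, 89.1%, 68.0% and 63.1%, so that the ranges did not overlap there and the difference was −22.0 points, with 233 myosin UMIs in α-cdKO replicate 2. With muscle RNA of at least 10% the shares were 79.2%, 89.0%, 71.3% and 77.8%, and the ranges did not overlap either.

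Single cells mostly carried 1 myosin. Of the 1017 cells, 730 had at least 5 myosin UMIs and 62 had none. In 612 of the 730 (83.8%) at least 90% of these UMIs came from 1 gene. *Myh4* led in 537 (73.6%), *Myh1* in 168 (23.0%), *Myh2* in 16 and *Myh7* in 9. By sample *Myh4* led in 40 of 64, 405 of 504, 74 of 134 and 18 of 28 cells, so control replicate 2 was the highest at 80.4% and α-cdKO replicate 1 the lowest at 55.2%. Without control replicate 2 *Myh4* led in 58.4% and *Myh1* in 36.3% of 226 cells.

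**Figure D2:**
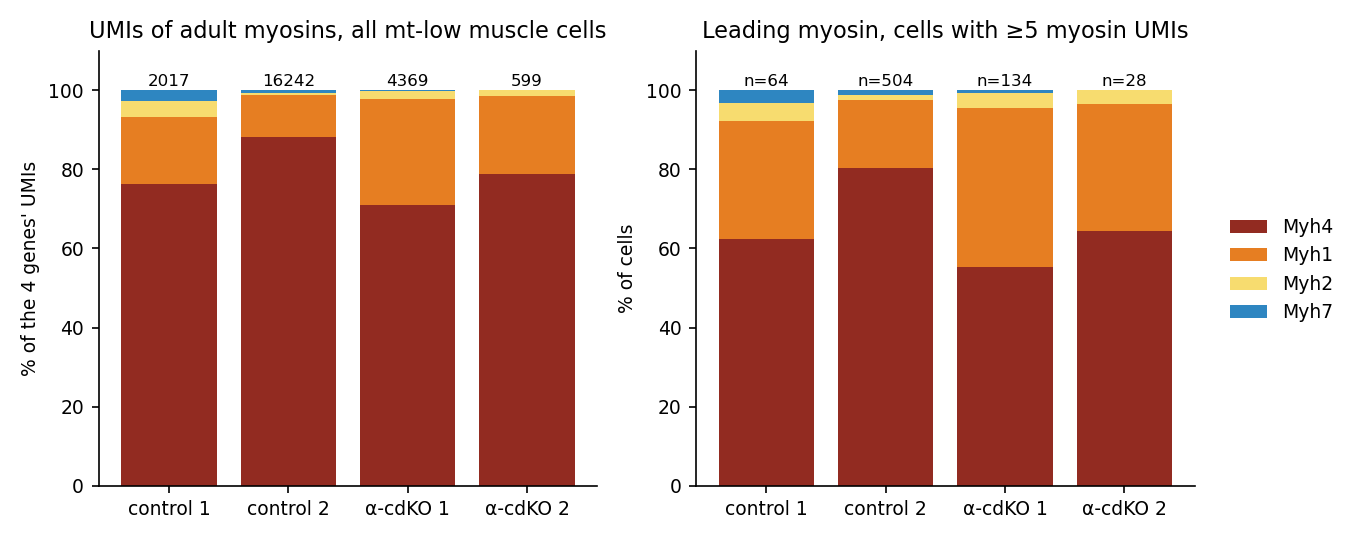
The left panel shows the share of *Myh4*, *Myh1*, *Myh2* and *Myh7* among their summed UMIs in the mt-low muscle cells of each sample, with the number of UMIs above each bar, and the right panel the share of cells led by each gene, with the number of cells. *Myh4* takes the largest part of every bar, from 71.0 to 88.2% of the UMIs.

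Some other genes differed with the leading myosin. The groups were split by a measured gene and the genes named were picked after their values were seen, so the values are a description. By list, 7 of 9 fast fiber genes were higher in *Myh4*-led than in *Myh1*-led cells in all 4 samples and 0 lower, against 0 higher, 2 lower and 9 mixed of 11 slow fiber genes, 6 higher, 5 lower and 5 mixed of 16 sarcomere scaffold genes, and 5 higher, 1 lower and 6 mixed of 12 calcium handling genes. Of all genes with a mean of at least 100 CPM, 16.5% were higher and 24.0% lower in all 4 samples (12.3% and 9.83% at 10 CPM). The 2 lower of 11 slow fiber genes lie near those shares. *Actn3*, the fast α-actinin, stood at 4913, 5201, 4999 and 4857 CPM in *Myh4*-led cells and at 1541, 1479, 2676 and 2503 in *Myh1*-led cells, and at 143 in *Myh2*-led and 0 in *Myh7*-led cells summed over samples. *Pvalb* was lower along the same order, from 13799 CPM in *Myh4*-led through 5442 and 562 to 38.8 in *Myh7*-led cells. *Mybpc2*, the fast myosin-binding protein C, had the same order, with 1611, 610, 8.92 and 0 CPM. The opposite slope was seen for *Actn2*, the other sarcomeric α-actinin, with 83.7, 336, 580 and 785 CPM, and for *Ankrd2*, an ankyrin repeat protein of slow fibers, with 6.30, 155, 937 and 1706 CPM.

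Metabolic genes differed between *Myh4*-led and *Myh1*-led cells. Of 978 genes with a mean of at least 100 CPM over both groups, 16.5% were higher in *Myh4*-led cells in all 4 samples and 24.0% lower in all 4 (12.3% and 9.83% of the 4539 genes with at least 10 CPM). Of 14 glycolytic genes, 9 were higher in *Myh4*-led cells in all 4 samples and 0 were lower in all 4. Lactate dehydrogenase (*Ldha*) stood at 2800 against 1798 CPM and glycerol-3-phosphate dehydrogenase (*Gpd1*) at 279 against 175 over all samples. Of 21 nuclear genes of the respiratory chain, 20 were lower in *Myh4*-led cells in all 4 samples and 0 were higher in all 4. The succinate dehydrogenase subunit *Sdhb* stood at 431, 403, 425 and 411 CPM in *Myh4*-led cells and at 1008, 873, 771 and 887 in *Myh1*-led cells, and *Atp5b*, a subunit of ATP synthase, at 1225 against 1999 CPM over all samples. The mitochondrial creatine kinase *Ckmt2* stood at 367 against 971 CPM.

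**Figure D3:**
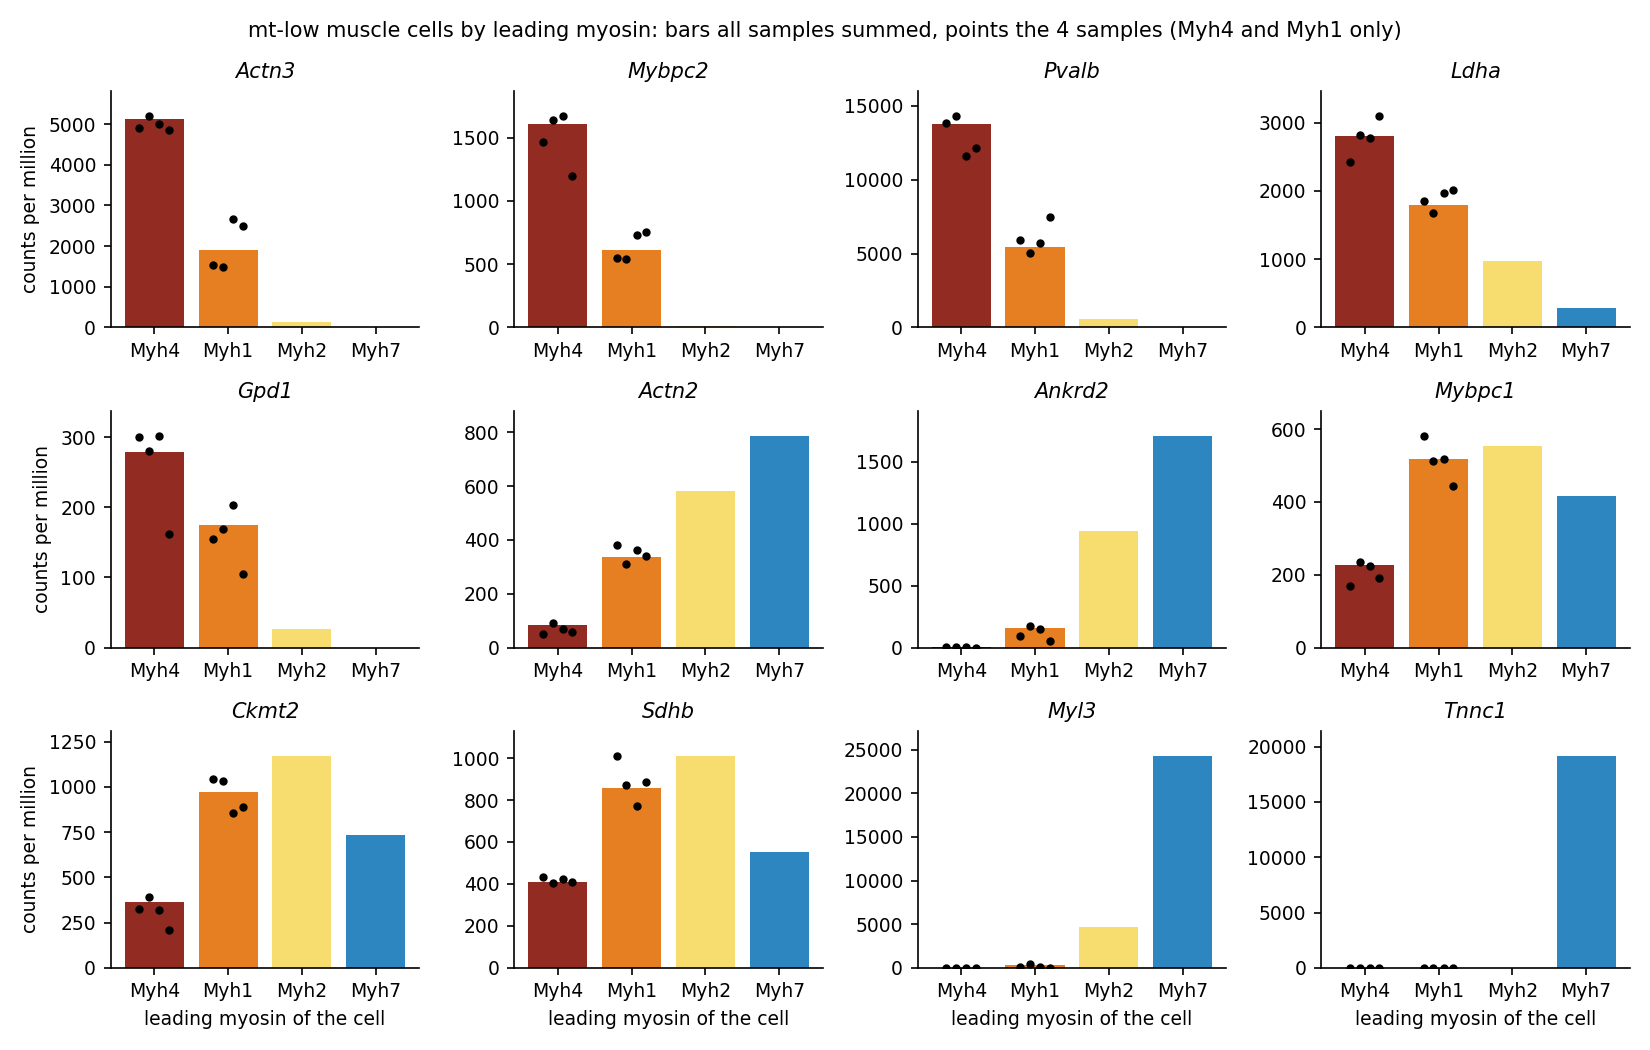
Bars give the CPM of 12 genes in the mt-low muscle cells of all samples summed, grouped by the myosin that leads in each cell (*Myh4* 537 cells, *Myh1* 168, *Myh2* 16, *Myh7* 9), and points give the 4 samples for the 2 large groups. *Actn3*, *Mybpc2*, *Pvalb*, *Ldha* and *Gpd1* step down from *Myh4* to *Myh7*, *Actn2* and *Ankrd2* step up, and *Myl3* and *Tnnc1* are highest in the *Myh7* group.

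A small slow group was nearly separate. In 31 of the 1017 cells (3.05%) the slow troponins *Tnnt1*, *Tnni1* and *Tnnc1* had more UMIs than the fast *Tnnt3*, *Tnni2* and *Tnnc2*. These 31 cells held 96.1% of all slow troponin UMIs, given as a description because the same genes chose them. Of the 1017 cells, 5 had a slow share between 10 and 90%, which is few beside 1017 but less so beside 31. The slow cells numbered 10, 16, 4 and 1 by sample, or 9.43%, 2.43%, 2.02% and 1.85% of the mt-low muscle cells. Summed over samples they carried *Myl2*, the slow regulatory light chain, at 25631 CPM against 75.6 in the rest, *Myl3* at 21022 against 412 and *Tpm3* at 11970 against 8.52. *Tnnc1*, which helped to choose the slow cells, was at 17468 against 12.9 CPM, as a description only. *Mb*, the oxygen store myoglobin, was at 8840 against 3688 CPM, and *Fabp3*, a fatty acid carrier, at 5504 against 719. *Acta1* was at 66299 against 51801 CPM, whereas *Ckm* was at 5147 against 23368.

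*Mylpf*, *Tnnc2* and *Tnnt3* are isoforms of fast fibers, and the slow cells lay at the low end of the muscle share. The highest share in a slow cell was 11.3%, and the 41 cells at 5 to 10% carried the 12 slow genes at 89732 CPM, against 874 CPM in the 551 cells at 15 to 20%. Sample means of slow genes therefore rest on few cells: 26.3% of all *Myl2* UMIs and 23.9% of all *Myh7* UMIs came from 1 cell. *Myh7b* had no UMI, and *Casq2* had 3.

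Nuclear genes for mitochondrial proteins were abundant although mitochondrial RNA was low by the rule. The 21 nuclear genes of the respiratory chain and its carriers summed to 52295, 53148, 58293 and 53484 CPM in mt-low muscle cells, led by *Slc25a4*, the muscle ADP/ATP carrier (7272 ± 489 CPM), *Atp5e* (6939 ± 608), *Cox6a2* (5689 ± 731) and *Cox6c* (4598 ± 277). In the other cells they summed to 4101, 4580, 5199 and 4770 CPM. The 13 genes of mitochondrial DNA, given as a description, summed to 1006, 832, 1078 and 654 CPM against 61972, 60843, 65683 and 57569 in the other cells. Each of the 13 was low, from *mt-Co3* at 201 ± 43.9 CPM to *mt-Nd6* at 0.864 ± 1.1. Thinned to 1000 UMIs, 50 of 106, 282 of 659, 113 of 198 and 27 of 54 mt-low muscle cells had any UMI of the 13 genes, against all of the other cells.

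The nuclear RNA *Malat1* was also almost missing, which the rule did not require. *Malat1* (ENSMUSG00000092341, chromosome 19 from 5795690 to 5802672) is a long noncoding RNA that stays in the nucleus and is among the most abundant RNAs of most cells. It stood at 89.8, 270, 561 and 49.4 CPM in the mt-low muscle cells and at 31522, 26429, 27504 and 23385 in the other cells. No sample overlapped (mean log2 ratio −7.39 ± 1.54, SD, n = 4 samples, two-sided exact paired permutation test, p = 0.125, the smallest possible with 4 pairs). The 92 cells low in both muscle and mitochondrial RNA had a mean of 20729 CPM, but they were in part other cell types, with the neutrophil gene *S100a8* at 62872, 112719, 0 and 45986 CPM. Of the 1017 cells, 840 (82.6%) had no *Malat1* UMI, and 6 cells held 82.9% of all *Malat1* UMIs, without which the pooled level was 50.4 CPM.

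Other transcripts kept in the nucleus were low as well. *Neat1* stood at 6.91, 27.3, 35.5 and 16.5 CPM against a mean of 468 in the other cells, and the imprinted *Meg3* and *Rian* averaged 6.23 and 3.46 CPM against 1389 and 129. *Xist*, which coats the inactive X chromosome, was at 1060 CPM in the other cells of α-cdKO replicate 1 and at most 0.273 in the other 3 samples. In the mt-low muscle cells of that replicate it had 2 UMIs, or 2.54 CPM. The pools may thus have differed in sex, and the part of this in the comparison of genotypes was not tested. By contrast, *Tpt1*, an abundant translation-associated transcript, had 12320, 9639, 8610 and 9261 CPM against a mean of 10631 in the other cells.

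Genes of satellite cells were close to 0. The 20 genes of the satellite cell list summed to 89.8, 119, 108 and 103 CPM in mt-low muscle cells and to 5508, 5771, 4742 and 5669 in the other cells. *Pax7* had 1 UMI in all 1017 cells, in control replicate 2, against a mean of 82.3 CPM in the other cells. *Myf5* had 8 UMIs, and *Hey1*, *Heyl* and *Cxcr4* had none. *Hes1*, a Notch target, was the highest at 31.9 ± 2.27 CPM against 148 in the other cells, followed by *Myod1* at 25.5 ± 6.39 against 571, *Sdc4* at 18.6 ± 7.61 against 2471 and *Itga7* at 6.21 ± 4.42 against 39.4. Thinned to 1000 UMIs, none of the 106, 659, 198 and 54 cells had a *Pax7* UMI, which allows shares of cells with a UMI of up to 2.83%, 0.455%, 1.52% and 5.56%, against 10.8%, 8.53%, 5.04% and 7.29% of the other cells. At this depth the gene is missed in most cells, so these limits do not bound the share of cells that express it.

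Of the genes of fusing myocytes most were low. *Myog*, which drives differentiation, averaged 14.96 CPM and *Mymk* had 1 UMI, while *Mef2c*, which mature fibers also use, averaged 482 ± 49.6 CPM against 6.44 in the other cells. *Cdkn1c* averaged 32.6 CPM and *Mymx* had no UMI. Among developmental genes *Myh3* had 1 UMI, *Myh8* 5, *Tnnt2* 15 and *Chrng* none. *Actc1* and *Myl4*, by contrast, averaged 149 ± 120 and 147 ± 89.0 CPM against 31.7 and 5.89 in the other cells.

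The stress response to cell isolation was weak in these cells. The 19 genes of this list summed to 2079, 1690, 1590 and 1399 CPM against 25484, 46541, 26445 and 42421 in the other cells. The chaperones *Hspb1* and *Hspe1* were the highest, at 888 ± 268 and 453 ± 26.7 CPM. The early response genes *Jun* and *Fos* averaged 78.8 and 32.7 CPM against 742 and 764 in the other cells, and *Hspa1a* 40.6 against 4436. The metallothioneins *Mt1* and *Mt2* averaged 278 and 80.8 CPM against 19824 and 7871, whereas the ubiquitin ligases of muscle atrophy, *Trim63* and *Fbxo32*, averaged 201 and 145 CPM against 0.721 and 10.6. Cytosolic ribosomal protein genes took 12.1%, 10.5%, 10.98% and 12.1% of the UMIs, against 32.7%, 31.9%, 34.0% and 33.4% in the other cells.

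**Figure D4:**
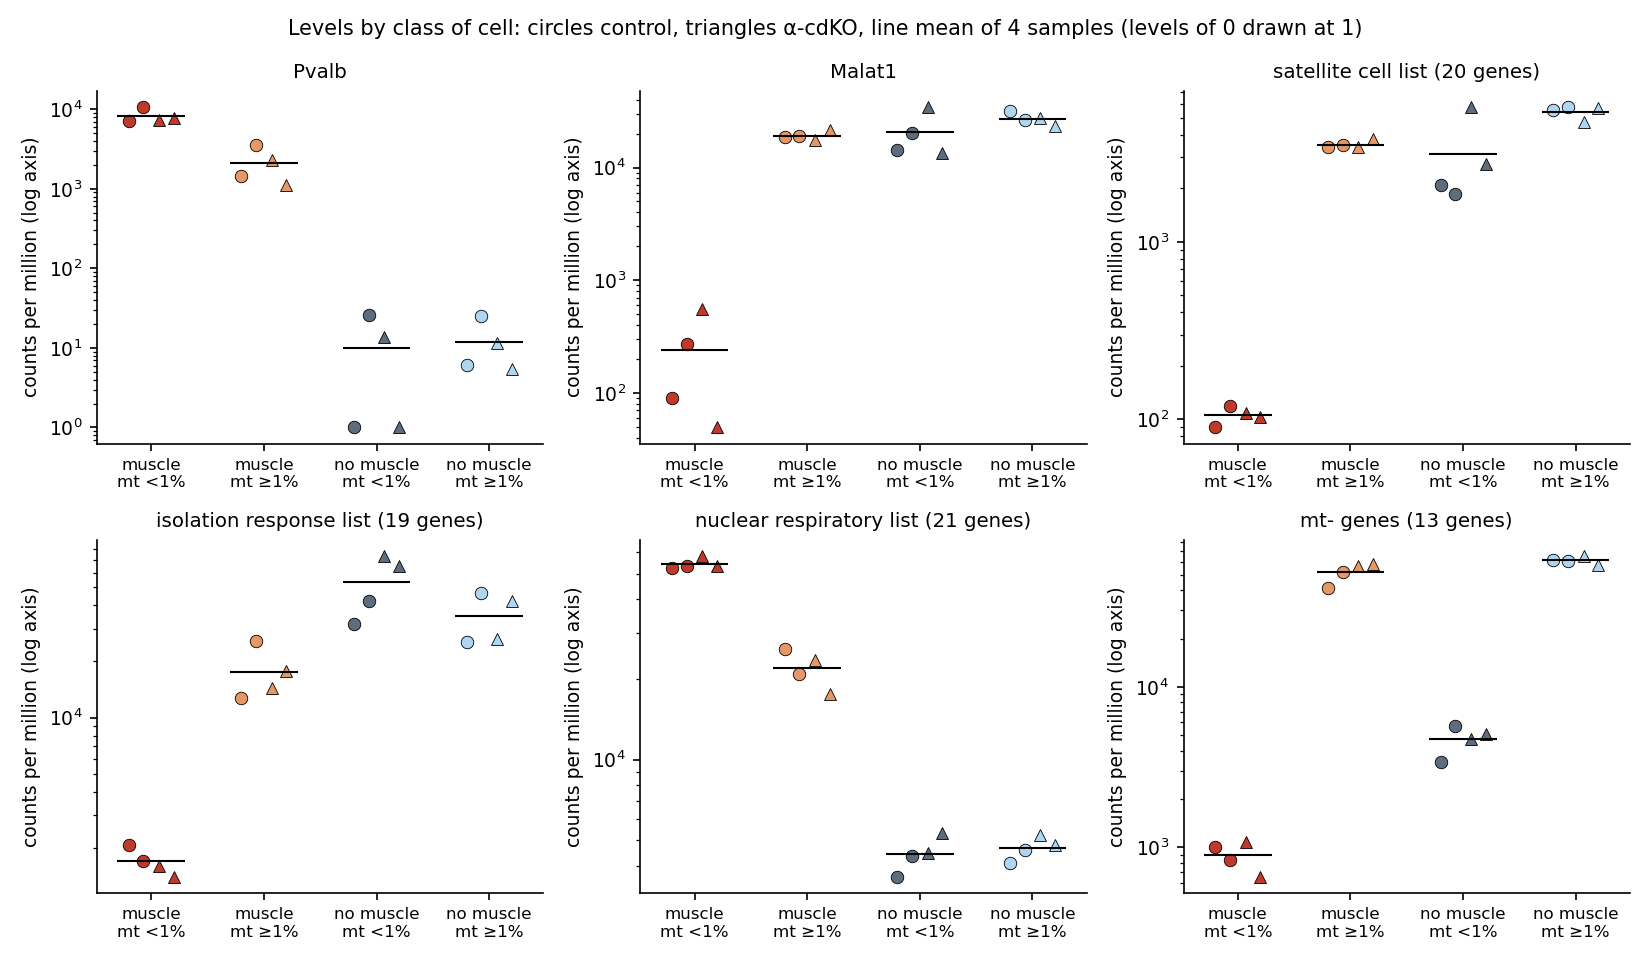
Levels in CPM, on log axes, of *Pvalb*, *Malat1* and 4 summed gene lists in the mt-low muscle cells (left in each panel), muscle cells with mitochondrial RNA, cells low in both and the other cells, with a point per sample and a line at the mean of the 4 samples. The mt-low muscle cells are highest for *Pvalb* and the nuclear respiratory list and lowest for the other 4 measures.

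The nearest group was the 330 cells that passed the same muscle threshold with at least 1% mitochondrial RNA (15, 187, 94 and 34 by sample). The question was which genes other than those in the rule differed. Sums of UMIs per sample and group entered edgeR's quasi-likelihood test with the sample as a block, leaving the mitochondrial and selecting genes out. Of 5195 genes, 1773 (34.1%) were higher and 2200 (42.3%) lower in the mt-low muscle cells at an adjusted p under 0.05. The 330 cells are a mixture, however. In 217 of them muscle RNA was under 10%, the median depth was 7435 UMIs, the satellite cell list stood at 3990 CPM and 118 were among the cells with the highest doublet scores. The 113 with at least 10% had a median of 1945 UMIs, 70.8% of them had no *Malat1* UMI, and 3 were among the highest doublet scores. With both groups held to at least 10% muscle RNA, 2 of 1849 genes were called, both lower (116 at an unadjusted p under 0.05). With both held to 1000 to 5000 UMIs, 28 of 2145 genes were higher and 267 lower.

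The genes called with both groups at 10% or more muscle RNA were *Malat1* and *Sdc4*, a proteoglycan of satellite cells. *Malat1* was lower in the mt-low muscle cells by a log2 fold change of −3.74 (SE 0.53, edgeR adjusted p = 0.0110). The comparison group there had 7, 62, 35 and 9 cells, with *Malat1* at 2670, 1609, 2196 and 172 CPM, so α-cdKO replicate 2 lay far under the others. *Sdc4* was at −3.66 (SE 0.45), with 78 UMIs in all mt-low muscle cells, so it may have entered the test through the other group, which would fix its direction. Over all cells of both groups the *Malat1* change was −6.32 (SE 0.33, adjusted p = 9.73e-20), with 18862, 18903, 17461 and 21601 CPM in the muscle cells with mitochondrial RNA.

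In the comparison of all cells the calls within some gene lists all had the same direction, and those within other lists were mixed. All 12 fast fiber genes were higher in the mt-low muscle cells, among them *Pvalb* (log2 fold change 2.36, SE 0.18) and *Myh4* (2.09, SE 0.20), though with both groups at 10% or more muscle RNA *Myh1* was −0.47 (SE 0.24) and *Myh2* −1.57 (SE 0.28, edgeR adjusted p = 0.0522). Also higher were 9 of 10 slow fiber genes tested, 12 of 12 calcium handling genes, 14 of 14 glycolytic genes, 14 of 16 sarcomere scaffold genes (all but *Ttn* and *Cryab*) and 21 of 21 nuclear respiratory genes, against 34.1% of all genes. The slow fiber exception was *Atp2a2*, a calcium pump that many cell types use (−3.05, SE 0.33). The selecting genes made up 15.9%, 17.8%, 18.2% and 19.3% of the UMIs of the mt-low muscle cells. In the comparison group they made up 5.23%, 5.70%, 5.42% and 3.19%. Genes expressed together with them would be higher through this difference alone, so the counts of higher muscle genes are a description only. Of the genes tested, those lower were 19 of 19 satellite cell genes, 18 of 18 isolation response genes, 5 of 5 nuclear-retained RNAs, 6 of 7 developmental muscle genes, 3 of 4 myocyte genes, 5 of 7 atrophy and stress genes, 3 of 3 synapse genes, 3 of 3 fibro-adipogenic genes, 2 of 2 smooth muscle genes and 73 of 81 ribosomal protein genes, against 42.3% of all genes. Apart from the ribosomal genes, many of these lay near 0 in the mt-low muscle cells (*Heyl*, *Cxcr4* and *Chrng* with no UMI, *Pax7*, *Chodl* and *Myh3* with 1) and entered the test through the other group, which fixed their direction, so those counts are a description only. Of the 2 myotendinous genes tested *Csrp3* was higher and *Ankrd1* lower, both tenocyte genes tested (*Thbs4* and *Scx*) were higher, and no endothelial, immune, glial, erythroid or cardiac gene was abundant enough to test.

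Values were also taken per UMI of the selecting genes. *Pvalb* had 45.3, 60.7, 40.0 and 40.4 UMIs per 1000 UMIs of the 5 selecting genes in the mt-low muscle cells and 27.6, 62.6, 42.1 and 34.8 in the muscle cells with mitochondrial RNA, higher in 2 samples and lower in 2. *Myh4* was lower in 3 of 4 samples on this scale, and *Myh1*, *Myh2* and *Mylk2*, a myosin light chain kinase, in 4 of 4. The other fast fiber genes were mixed. *Myl1*, *Tnni2*, *Actn3* and *Tpm1* were higher in 3 of 4 samples, *Mybpc2* and *Atp2a1* lower in 3 of 4, and *Casq1* higher in 2 and lower in 2. Of 21 nuclear respiratory genes 17 were lower in all 4 samples, and of 14 glycolytic genes 10 were, while *Pgam2* was higher in all 4. Of all 5734 genes with a mean of at least 10 CPM over both groups, 79.4% were lower in all 4 samples on this scale, so the counts for both lists lie near or below that of all genes. What part the satellite cell RNA in the 217 cells has in this was not tested.

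By the size of the change, the genes most raised were *Tceal7* (3.20, SE 0.33), *Map3k7cl* (3.18, SE 0.44), *Snrpn* (2.78, SE 0.36), *Mustn1* (2.63, SE 0.25), *Hist1h4i* (2.63, SE 0.34), *Gm7607*, *Gm4841*, *Zfp938*, *Gm15543* and *Csrp3* (2.52, SE 0.21), a LIM protein of the Z-disc. *Csrp3* stood at 1163, 217, 556 and 523 CPM in the mt-low muscle cells and at 127, 59.7, 159 and 103 in the muscle cells with mitochondrial RNA, but its change was −0.29 among cells of 1000 to 5000 UMIs. All 10 lost their call with both groups at 10% or more muscle RNA, where *Gm15543* was −0.32 and the other 9 kept their direction, from 0.35 (*Gm4841*) to 2.32 (*Map3k7cl*). The genes with the largest negative log2 fold change were *Serping1*, *Marcksl1*, *Nppc*, *Chodl*, *Bcl3*, *Nr4a2*, *Acta2*, *Cavin2*, *Mymk* and *Sox11*. All 10 lay at or near 0 in most mt-low muscle samples and entered the test through the other group, which fixed their direction, and none had enough UMIs to be tested with both groups at 10% or more muscle RNA. *Serping1*, the complement C1 inhibitor, had no UMI in any mt-low muscle cell and 127, 118, 124 and 94.7 CPM in the muscle cells with mitochondrial RNA. *Acta2*, smooth muscle actin, had 0, 3.08, 1.27 and 20.6 CPM against 177, 615, 1948 and 4403.

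For the genotypes, the floxed genes were read first. *Ctnna1* had 1, 12, 5 and 0 UMIs in the mt-low muscle cells, or 2.30, 4.61, 6.35 and 0 CPM, against 92.0, 75.4, 80.3 and 76.2 in the other cells. *Ctnna3*, the α-catenin of striated muscle, had 1, 29, 4 and 3 UMIs, or 2.30, 11.1, 5.08 and 12.3 CPM, against at most 0.192 CPM in the other cells. Neither separated the genotypes, and 3′ UMIs outside the floxed exons do not report their deletion.

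Between α-cdKO and control, 6 of 3637 genes tested in the mt-low muscle cells (0.165%) passed an adjusted p under 0.05 in edgeR's quasi-likelihood test, and 162 had an unadjusted p under 0.05. The genes higher in α-cdKO were *AA465934*, *Gm8797* and *Gm4841*. *AA465934* stood at 0, 1.15, 220 and 161 CPM, in the order used above (log2 fold change 7.55, SE 0.46, adjusted p = 2.91e-07). *Gm8797* stood at 11.5, 8.84, 237 and 169 CPM (4.54, SE 0.32, adjusted p = 1.28e-06), and *Gm4841* at 2.30, 5.00, 74.9 and 218 CPM (4.91, SE 0.56, adjusted p = 0.000419). In the muscle cells with mitochondrial RNA all 3 separated the genotypes as well, with 0 and 0.933 against 105 and 18.9 CPM for *AA465934*.

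The lower genes were *Gm42418*, *Pttg1* and *Myl2*. *Gm42418*, a locus that overlaps ribosomal RNA sequence, stood at 12880, 4896, 2169 and 1239 CPM (−2.25, SE 0.33, adjusted p = 0.00598), and *Pttg1*, securin, at 124, 146, 36.8 and 4.12 CPM (−2.25, SE 0.40, adjusted p = 0.0339). *Myl2* stood at 2797, 1365, 407 and 667 CPM (−1.85, SE 0.29, adjusted p = 0.0122). Without the 31 slow cells *Myl2* stood at 187, 43.5, 81.2 and 216 CPM, and the genotypes overlapped. In the muscle cells with mitochondrial RNA *Gm42418* (16565, 4753, 2056 and 1271 CPM) and *Pttg1* (69.6, 51.3, 6.68 and 2.71) also separated the genotypes, and *Gm42418* did so in the other cells (10483, 4328, 2781 and 1717 CPM), whereas *Myl2* did not separate them in the muscle cells with mitochondrial RNA (171, 470, 286 and 473). *AA465934* and *Gm8797* kept their call under every alternative tried. *Gm4841* and the 3 lower genes lost it when cells were chosen on a random part of their UMIs, and the 3 lower genes also with DESeq2 and with a muscle threshold of 0.5%. *Pttg1* and *Myl2* lost it with at least 2000 UMIs too, and *Myl2* with mitochondrial RNA under 2%.

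**Figure D5:**
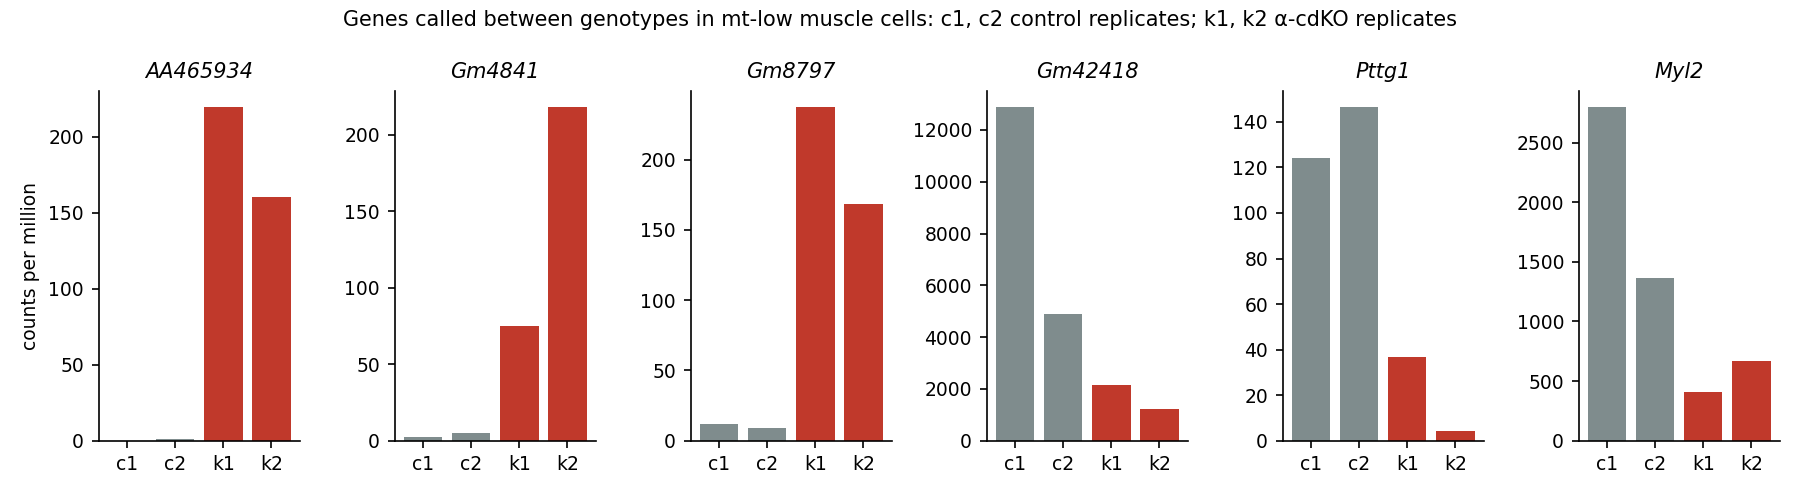
Bars show CPM in the mt-low muscle cells of each sample for the 6 genes called between the genotypes, with controls (c1, c2) in grey and α-cdKO (k1, k2) in red, each panel on its own linear axis from 0. The groups do not overlap in any panel, and *Gm42418* also differs between the controls themselves (12880 and 4896).

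With all samples and the main settings, the slow fiber list alone among the muscle lists held a call between genotypes. That call was lost under several alternatives, as given above. Values of *Pvalb*, *Myh1* and *Myh4* moved when a sample was left out, as given below. No gene passed the test among the 12 fast fiber, 16 sarcomere scaffold, 12 calcium handling, 14 glycolytic and 21 nuclear respiratory genes, with median log2 fold changes of 0.19, 0.01, 0.15, 0.18 and 0.17, against −0.02 over all genes tested. Of 9 slow fiber genes tested 1 was lower (*Myl2*), against 0.165% of all genes called, and the list's median was −1.62. The *Myl2* call rests on the 31 slow cells, split 10, 16, 4 and 1 over the samples, without which *Myl2* overlapped between genotypes as given above. For the list's median this was not tested, and *Myl3* and *Myoz2* stood at 412 and 213 CPM in the other mt-low muscle cells. *Pvalb* had a log2 fold change of −0.15 (SE 0.19) and *Myh4* one of −0.52 (SE 0.26), both with an adjusted p = 0.998. In simulated data of the same size the test called 90% of changes of 2 on the log2 scale but 18% of changes of 1, so most differences of 1 or less would be missed with 2 samples a genotype at these depths.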

How the data were processed

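Single-cell RNA-seq counts came from 4 pools of sorted tdTomato+ hindlimb cells (viable by SYTOX Blue). The authors used a 10x 3′ kit, and per the file headers the deposited UMI counts were made with Cell Ranger 7.1.0 on GRCm38 as filtered gene-by-barcode matrices of 32285 genes, not normalized. The submitters' processing notes also name Seurat 4.0.3. The matrices held 48515992 and 46099310 UMIs in control and 73261352 and 74921651 in α-cdKO, over 5853, 6319, 10649 and 8433 barcodes, of which 234, 750, 523 and 129 fell under the limits of 1000 UMIs and 400 genes.

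The selecting rule, the 23 gene lists (221 genes) and the tests were chosen with earlier results of these data known. Doublets were scored with Scrublet (scanpy 1.11.5), whose automatic threshold called 1, 6, 1 and 0 cells and so had not worked. The highest scores, at 0.8% of cells per 1000 cells, were left out in an alternative (253, 248, 820 and 552 cells, of which 1 was an mt-low muscle cell), and otherwise no doublet was removed.

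UMIs summed per sample and group were tested with edgeR 4.0.16 (R 4.3.3; filterByExpr, TMM, quasi-likelihood, Benjamini-Hochberg adjustment, threshold 0.05), with DESeq2 1.42.0 as an alternative. Shares were compared over samples with exact permutation tests (scipy 1.17.1). Intervals are exact Clopper-Pearson 95% intervals, the limit of a count of 0 is 3 counts, and both cover counting error only. On simulated counts, with the same dispersion for all genes, the comparison of both muscle groups recovered 57% of log2 changes of 1 and 93% of changes of 2. None of these calls had the wrong direction.

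Named genes were the selecting genes and *Pvalb*, the 4 myosins, the 4 most abundant genes of each list with *Pax7*, *Myf5*, *Myod1* and *Myog*, the 10 most abundant genes, up to 10 rises and 10 falls by log2 fold change between both muscle groups (at least 50 CPM in the higher group, same direction in 4 samples) and up to 5 each way between genotypes. Other genes, the split by leading myosin and the slow troponin group were chosen after their values were seen. Symbols shared by several gene IDs (40 duplicates) were kept as separate rows. Nothing in the labels says how littermates were assigned, or whether replicate numbers do more than name samples.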

Additional observations from a re-analysis of the deposited data

Results flagged for a closer look

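The difference between mt-low muscle cells and muscle cells with mitochondrial RNA was itself compared between genotypes, a test chosen after seeing the data. With edgeR's quasi-likelihood test and Benjamini-Hochberg adjustment, 5 of 5195 genes had an interaction at an adjusted p under 0.05, and 202 had an unadjusted p under 0.05. The slow fiber genes *Myl2* (log2 interaction −2.03, SE 0.41, adjusted p = 0.00303), *Tnnc1* (−2.09, SE 0.44, adjusted p = 0.00303) and *Tnni1* (−1.99, SE 0.46, adjusted p = 0.0150) had a smaller excess in the mt-low muscle cells of α-cdKO than of control. The same held for *Xirp1*, an actin-binding protein of muscle (−3.52, SE 0.77, adjusted p = 0.00582). *Fos* had the opposite sign (2.52, SE 0.53, adjusted p = 0.00303), with 23.0, 27.3, 39.3 and 41.2 CPM in the mt-low muscle cells and 253, 785, 204 and 86.5 in the muscle cells with mitochondrial RNA. Of all *Tnnc1* and *Tnni1* UMIs in mt-low muscle cells, 24.5% and 23.8% came from a single cell. Without the 31 slow cells, which were split 10, 16, 4 and 1 over the samples, *Myl2* stood at 187, 43.5, 81.2 and 216 CPM and *Tnnc1* at 2.63, 17.7, 5.16 and 4.23 CPM in the mt-low muscle cells, and the genotypes overlapped.

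Cells under the depth limits, which no comparison used, also met both shares. They were 32 of 234 (13.7%) in control replicate 1, 121 of 750 (16.1%) in control replicate 2, 58 of 523 (11.1%) in α-cdKO replicate 1 and 15 of 129 (11.6%) in α-cdKO replicate 2, with median depths of 654.5 to 740.5 UMIs. *Pvalb* stood at 7990, 12412, 8921 and 8648 CPM in them and *Malat1* at 344, 1448, 372 and 89.2 CPM.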

How the results depend on the processing

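The share of mt-low muscle cells kept its direction under all 14 alternatives (log2 ratio −3.40 to −0.53, leave-one-out included), as did the *Myh4* share of myosin UMIs under 13 (−22.0 to −1.33 percentage points, with −13.2 to −1.33 when a sample was left out and −22.0 with 1000 to 5000 UMIs). The weaker end of both was without control replicate 2, and with 2 samples a genotype neither test could pass the threshold.

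The 6 calls between genotypes became 3 with muscle RNA of at least 0.5%, 12 with mitochondrial RNA under 0.5%, 2 with cells chosen on a random part of their UMIs and measured on the rest, 3 with DESeq2, 35 with no filter on low counts, and 24 to 45 when a sample was left out (45 without control replicate 2). The 3973 calls between both muscle groups became 2 with at least 10% muscle RNA in both, 295 with 1000 to 5000 UMIs in both, and 2802 to 4272 when a sample was left out. What changed these counts was not tested. With the replicate number as a block 18 genes differed between genotypes. Same-numbered samples did not deviate together in the mt-low muscle cells (r = −0.092 over 3637 genes). With 2 samples a genotype this cannot tell whether same-numbered samples shared a preparation.

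Of 176 values for 11 named genes between genotypes 8 reversed, 13 lost and 5 gained the call, and of 514 for 30 genes between both muscle groups 5 reversed, 31 lost and 5 gained it. Between genotypes *Malat1* was −0.052 and *Myh2* 0.057 with mitochondrial RNA under 2%, and *Myh2* was 0.57 on split UMIs. Leaving out a sample gave log2 ranges of −0.42 to 0.23 for *Pvalb*, −0.40 to 1.13 for *Myh1*, −1.34 to 1.10 for *Myh2* and −1.84 to 1.99 for *Malat1*. With all samples none of these was called, but *Malat1* was called without control replicate 2 or α-cdKO replicate 2, *Myh1* without α-cdKO replicate 2, and *Myh4* without control replicate 1 (−0.81) or α-cdKO replicate 1 (−1.08), fits in which the lone sample of a genotype is assumed to vary like the other genotype. Between both muscle groups, with at least 10% muscle RNA, *Myh1* was −0.47, *Myh2* −1.57 and *Gm15543* −0.32, and with 1000 to 5000 UMIs *Csrp3* was −0.29 and *Myh2* −1.66. Size factors in place of TMM moved the median of all genes by −0.19 in that comparison and by 0.01 between genotypes.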
